A study of Mus musculus with 16 samples.

Results

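Human miRNAs are numbered roughly in the order in which they were entered into the miRNA registry, and the names from miR-3000 to miR-4999 were among the later entries on this array. All array names in that range were taken except 4 (miR-3610, miR-4281, miR-4284 and miR-4286), and the members were then chosen by measured detection: some probe of the miRNA had to be detected in every culture of 1 or more X-ray doses. Detection on an array meant that the share of the probe's spots flagged well above background exceeded 0.5. This kept 73 of the 294 names in the range on the array (24.8%), out of 283 human miRNAs of 1205 that met the same detection rule. Of the 911 human names outside the range or left out of it, 210 met that rule (23.1%).

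HCT116 is a cell line from a human colorectal carcinoma, and the RNA was taken from its medium after X-rays at a high dose rate. The groups were 0 Gy (not irradiated), 2 Gy, 6 Gy and 10 Gy, with 4 arrays each. All of them, the 0 Gy controls included, were HCT116 cultures kept in RPMI1640 medium with 10% fetal bovine serum for 72 h, and 100 ng of RNA per sample was labelled with Cy3. The labels name no clone, transgene or added drug, and they name mouse as the organism. HCT116 is of human origin, and only probes for human miRNAs were tested. The design text describes 4 independent experiments with different cultures per dose and does not list the 2 Gy dose, which was taken from the labels of its own samples.

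A miRNA is cut from a hairpin precursor by the enzymes Drosha and Dicer and loaded onto an Argonaute protein, which it guides to matching messenger RNAs. Cells also release miRNAs, inside vesicles or bound to proteins, so culture medium holds a set that can be read without lysing the cells. Many late-numbered miRNAs were found by deep sequencing, are scarce, have few established targets, and in part overlap fragments of other structured RNAs such as ribosomal, transfer and small nucleolar RNA. In medium, fewer cells and less release per cell cannot be told apart, and since a fixed mass of RNA was labelled, every value is relative to the other RNA of its sample. The part of RNA from the serum was not tested.

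The levels below are log2 of scaled signal. Arrays were scaled to a common 75th percentile over 518 probes detected throughout, and values under a floor of 0.0412 (-4.60 on the log2 scale) were set to it. A level therefore compares arrays for 1 miRNA, and no order of abundance between miRNAs is drawn. Differences were tested with limma over all 283 miRNAs, with Benjamini-Hochberg adjustment and a threshold of 0.05, and errors of differences are standard errors. With 4 cultures per dose, p-values rest on the spread between those cultures.

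Arrays detected 242 to 358 human miRNAs, and no spot was saturated. The arrays of 0 and 2 Gy were on 1 slide and those of 6 and 10 Gy on the other, so slide and dose cannot be told apart in 6 or 10 Gy against 0 Gy. The RNA added by the laboratory before labelling (the labelling spike-in, mean log2 intensity) ranged from 0 to 9.34 over the arrays. Its intensities under 1 were set to 1 before log2, so the 0, of 6 Gy replicate 4, is that lower limit and not a measured level. It was within the scanner software's expected range on 3 of them. In order of dose it averaged 6.56 ± 3.84, 4.32 ± 1.92, 3.19 ± 2.27 and 6.55 ± 1.27 (SD over 4 arrays), and 0 Gy replicate 3 stood at 0.92 against 7.49 to 9.34 in the other 0 Gy cultures. The spike-in added at hybridization ranged from 12.2 to 13.77. Of 8 miRNAs that mark epithelial and colon carcinoma cells, 4 were tested and 3 (miR-192-5p, miR-194-5p and miR-215-5p) were detected on 0 arrays. The summed scaled signal of the 4 tested ranged from 0.463 to 3.68 at 0 Gy, 0.381 to 2.01 at 2 Gy, 0.165 to 0.847 at 6 Gy and 0.538 to 1.53 at 10 Gy. Of the 8, 0 were detected on all 16 arrays. Of 4 red blood cell names, 1 was detected on all 16 arrays and 2 on 0. Of 4 white blood cell and platelet names it was 1 and 3, and of 4 muscle names 2 and 1. The liver name, miR-122-5p, was detected on 4 arrays.

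The late-named miRNAs were detected in nearly every culture. Of the 73, 65 were detected on all 16 arrays, and single arrays detected 65 to 73 of them. The number detected on all 4 arrays of a dose was 69, 71, 69 and 65 in order of dose. These counts are part of the rule that chose the members and are given without a test.

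The other 8 lay near the limit of detection. miR-4323 was detected on all 4 arrays at 0, 2 and 6 Gy, as was miR-3180-5p, and miR-3200-5p was at 0 and 6 Gy. miR-3650 reached this at 0 and 2 Gy, miR-3154, miR-3654 and miR-3915 at 2 Gy, and miR-3161 at 6 Gy. miR-3915 was detected on the fewest arrays of these, 11, and miR-4323 on the most, 15.

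Names just outside the rule lacked 1 array in their best dose. miR-3197 was detected on 2, 3, 3 and 3 arrays at 0, 2, 6 and 10 Gy, miR-3174 on 1, 3, 3 and 3, and miR-3925-5p on 2, 3, 3 and 1. In all, 9 names had at best 3 of 4 arrays of a dose, 13 had 1 or 2, and 199 were detected on 0 arrays. The range thus divided into names detected in most cultures and names detected in none, with few between.

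Members were spread over the whole number range. They made up 25 of 98 names from miR-3000 to miR-3299 (25.5%), 23 of 82 from miR-3600 to miR-3699 (28%), 9 of 37 from miR-3700 to miR-3999 (24.3%) and 16 of 77 from miR-4000 to miR-4999 (20.8%). Cultures of 1 dose lay close together, with a median within-dose SD of 0.21 over the 73 and a range of 0.04 to 0.61, beside 0.25 and 0.08 to 1.76 for the other 210 miRNAs. An SD over 1 was found for 0 of the 73 and 11 of the 210. Of the members' 1168 values, 13 lay at the floor (1.11%), beside 176 of 3360 (5.24%) for the others.

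miR-3917 and miR-3648 varied least. miR-3917 ranged from -2.0 to -1.85 over all 16 arrays, and miR-3648, whose hairpin lies in a ribosomal RNA spacer, from 1.04 to 1.22. miR-3131 varied most, with a within-dose SD of 0.61. Its levels were -3.38, -3.18, -1.21 and -3.25 at 0 Gy, -1.92, -2.38, -1.90 and -2.0 at 2 Gy, -2.41, -2.41, -2.57 and -1.34 at 6 Gy, and -2.36, -2.91, -2.77 and -2.58 at 10 Gy. Its highest values came from 0 Gy replicate 3 and 6 Gy replicate 4, the arrays with the lowest labelling spike-in (0.92 and 0). miR-3131 also had the highest change of any member at 2 Gy, 0.70, and it did not pass the test.

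Probes of the same miRNA mostly moved together. Of the 66 members with at least 2 probes, the probes' changes had the same sign in 64 at 2 Gy, 63 at 6 Gy and 61 at 10 Gy. The lowest correlation between probes over the 16 arrays had a median of 0.97 over these members and was over 0.9 in 56. miR-4306 stood apart, with a correlation of -0.09 and opposite changes, 0.50, 0.42 and 0.25 for 1 probe and -0.16, -0.34 and -0.34 for the other at 2, 6 and 10 Gy.

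**Figure D1:**
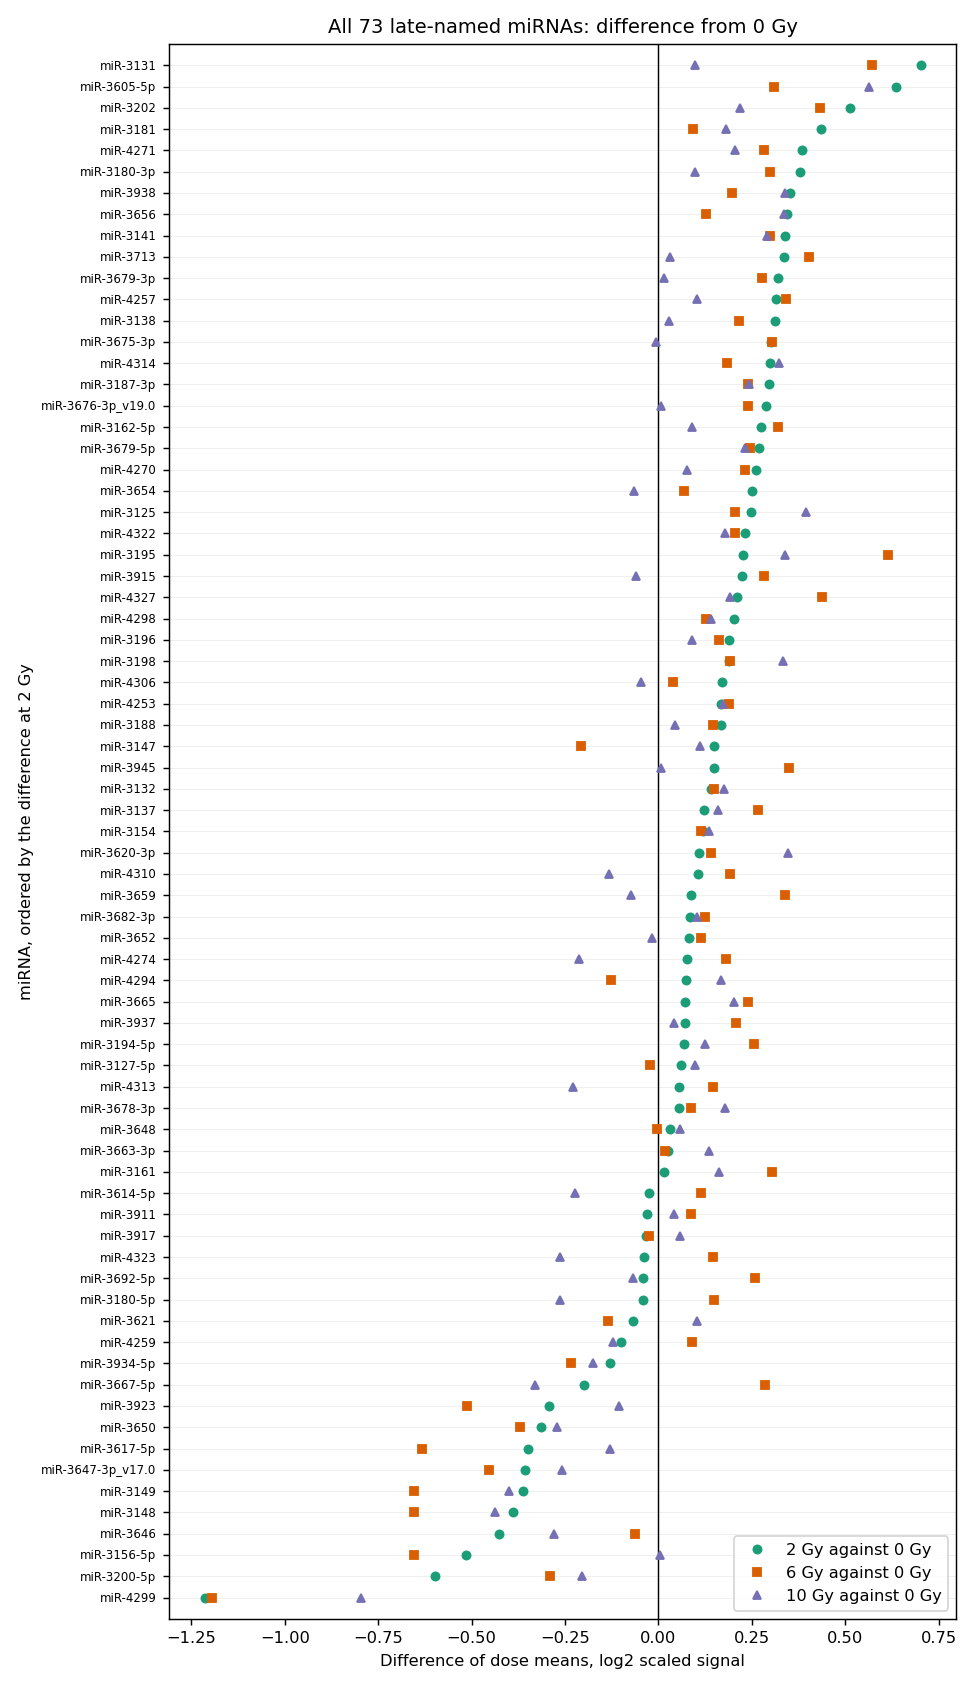
Difference from the 0 Gy mean (log2 scaled signal, horizontal axis) for each of the 73 late-named miRNAs (vertical axis, ordered by the difference at 2 Gy), with circles for 2 Gy, squares for 6 Gy and triangles for 10 Gy. At 2 Gy 53 of the 73 points lie to the right of the line at 0, and miR-4299 lies apart on the left with -1.21, -1.19 and -0.80.

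The design asks how extracellular miRNAs differ with dose, and 0 Gy is the shared control of 3 of the comparisons. Most late-named miRNAs had small positive differences from 0 Gy. The lowest of the 4 dose means was at 0 Gy for 40 of the 73, at 2 Gy for 5, at 6 Gy for 13 and at 10 Gy for 15. The highest mean was at 0 Gy for 10, at 2 Gy for 22, at 6 Gy for 27 and at 10 Gy for 14. These counts include members kept through the detection of 1 irradiated dose alone (miR-3154, miR-3654, miR-3915 and miR-3161). Among the other 210 miRNAs the highest mean was at 0 Gy for 87 and the lowest at 0 Gy for 64.

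At 2 Gy, 5 of the 73 passed the threshold against 0 Gy (6.85%), where 12.7% of all tested miRNAs did. miR-3605-5p, miR-3181, miR-4271 and miR-3187-3p rose, and miR-4299 fell. Of all tested miRNAs, 6.01% passed as higher and 6.71% as lower. The median difference over the 73 was 0.12, with 53 above 0 and a range of -1.21 to 0.70, beside a median of 0.03 over all 283. The 53 include miR-3154, miR-3654 and miR-3915 (0.12, 0.25 and 0.22). These met the detection rule through their 2 Gy arrays alone, so the choice of members favoured their rise. At an unadjusted p under 0.05 there were 17 members, 13 higher and 4 lower, where 35% of all tested miRNAs were below that p. The 4 lower include miR-3200-5p, which met the detection rule at 0 and 6 Gy and not at 2 Gy. The arrays of 0 and 2 Gy did not overlap for 8 members (11%), 7 higher and 1 lower. Of all tested, 11.3% did not overlap, 7.07% higher and 4.24% lower.

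miR-4299 had the largest difference of any member. At 0 Gy its levels were -1.54, -2.53, -3.33 and -2.37, at 2 Gy -3.74, -3.43, -3.72 and -3.73, at 6 Gy -3.72, -3.58, -3.48 and -3.76, and at 10 Gy -3.30, -2.83, -3.19 and -3.64. All 2 and 6 Gy values lay below all 0 Gy values, while the 10 Gy values overlapped them. The 0 Gy cultures were themselves the most spread, from -3.33 in replicate 3 to -1.54 in replicate 1. The SDs were 0.73, 0.15, 0.13 and 0.34 in order of dose. The errors and interval below use a spread shared by all doses, with a within-dose SD of 0.41, which is below that at 0 Gy. miR-4299 fell by 1.21 ± 0.28 at 2 Gy (limma adjusted p = 0.0190, 95% interval -1.81 to -0.62), and at 10 Gy it differed by -0.80 ± 0.28 (adjusted p = 0.117).

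Its level moved with the labelling spike-in. The lowest 0 Gy value of miR-4299, -3.33, came from replicate 3, where the spike-in was 0.92, and the highest, -1.54, from replicate 1, where it was 9.34. With the spike-in as a covariate the difference at 2 Gy was -0.91 (adjusted p = 0.0112). Without 0 Gy replicate 1 it was -0.91 (adjusted p = 0.0545), and the adjusted p was 0.0724, 0.0625 and 0.0739 without 2 Gy replicate 1, 3 or 4. With normexp background correction the difference was -0.60 (adjusted p = 0.065). With the 0 and 2 Gy arrays of their shared slide alone it was -1.21 (limma adjusted p = 0.112).

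miR-3605-5p had the largest difference among the members that passed as higher at 2 Gy. Its levels were -3.47, -2.82, -2.88 and -3.02 at 0 Gy, -2.41, -2.53, -2.43 and -2.27 at 2 Gy, -2.86, -2.51, -2.89 and -2.68 at 6 Gy, and -2.41, -2.62, -2.42 and -2.48 at 10 Gy. All 2 Gy and all 10 Gy values lay above all 0 Gy values, and 6 Gy overlapped 0 Gy. It rose by 0.64 ± 0.13 at 2 Gy (limma adjusted p = 0.0190, 95% interval 0.35 to 0.92). The differences at 6 Gy, 0.31 ± 0.13 (adjusted p = 0.0911), and at 10 Gy, 0.56 ± 0.13 (adjusted p = 0.0552), did not pass. With the spike-in as a covariate the 2 Gy difference was 0.56 (adjusted p = 0.0151). The adjusted p was 0.0664 without 2 Gy replicate 1 and 0.0739 without replicate 4, and with normexp the difference was 0.26.

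miR-3181 had its highest mean at 2 Gy, a dose that was tested against 0 Gy only. Its levels were -3.89, -3.97, -4.01 and -3.65 at 0 Gy, -3.36, -3.37, -3.64 and -3.40 at 2 Gy, -3.96, -3.68, -3.73 and -3.78 at 6 Gy, and -3.63, -3.75, -3.76 and -3.66 at 10 Gy. The 2 Gy values lay above all 0 Gy values, though the lowest of them, -3.64, came next to the highest 0 Gy value, -3.65. It rose by 0.44 ± 0.10 at 2 Gy (limma adjusted p = 0.0190) and differed by 0.09 ± 0.10 at 6 Gy and 0.18 ± 0.10 at 10 Gy (adjusted p = 0.446 and 0.309). The rise was 0.10 (adjusted p = 0.711) with normexp. The adjusted p was 0.0545 without 0 Gy replicate 1, and 0.0843 and 0.0739 without 2 Gy replicate 1 or 4.

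miR-4271 and miR-3187-3p had smaller rises with little spread. miR-4271 read -0.29, -0.25, 0.03 and -0.17 at 0 Gy, 0.27, 0.05, 0.24 and 0.30 at 2 Gy, 0.02, 0.07, 0.05 and 0.31 at 6 Gy, and 0.14, -0.10, -0.04 and 0.14 at 10 Gy. Its 2 Gy arrays all exceeded its 0 Gy arrays, a rise of 0.38 ± 0.10 (limma adjusted p = 0.0283). miR-3187-3p read -3.27, -3.13, -2.97 and -3.06 at 0 Gy, -2.74, -2.81, -2.92 and -2.78 at 2 Gy, -2.86, -2.82, -2.95 and -2.85 at 6 Gy, and -2.77, -2.94, -2.97 and -2.80 at 10 Gy. Its rise at 2 Gy was 0.30 ± 0.08 (limma adjusted p = 0.0333), and its differences at 6 and 10 Gy were both 0.24 ± 0.08 (adjusted p = 0.0539 and 0.111). With normexp the 2 Gy difference of miR-3187-3p was 0.10 (adjusted p = 0.598) and that of miR-4271 0.33 (adjusted p = 0.0451). For both miRNAs the adjusted p at 2 Gy lay above 0.05 without any 1 of 0 Gy replicates 1, 2 and 4 and 2 Gy replicates 1, 3 and 4 (0.0638 to 0.11).

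**Figure D2:**
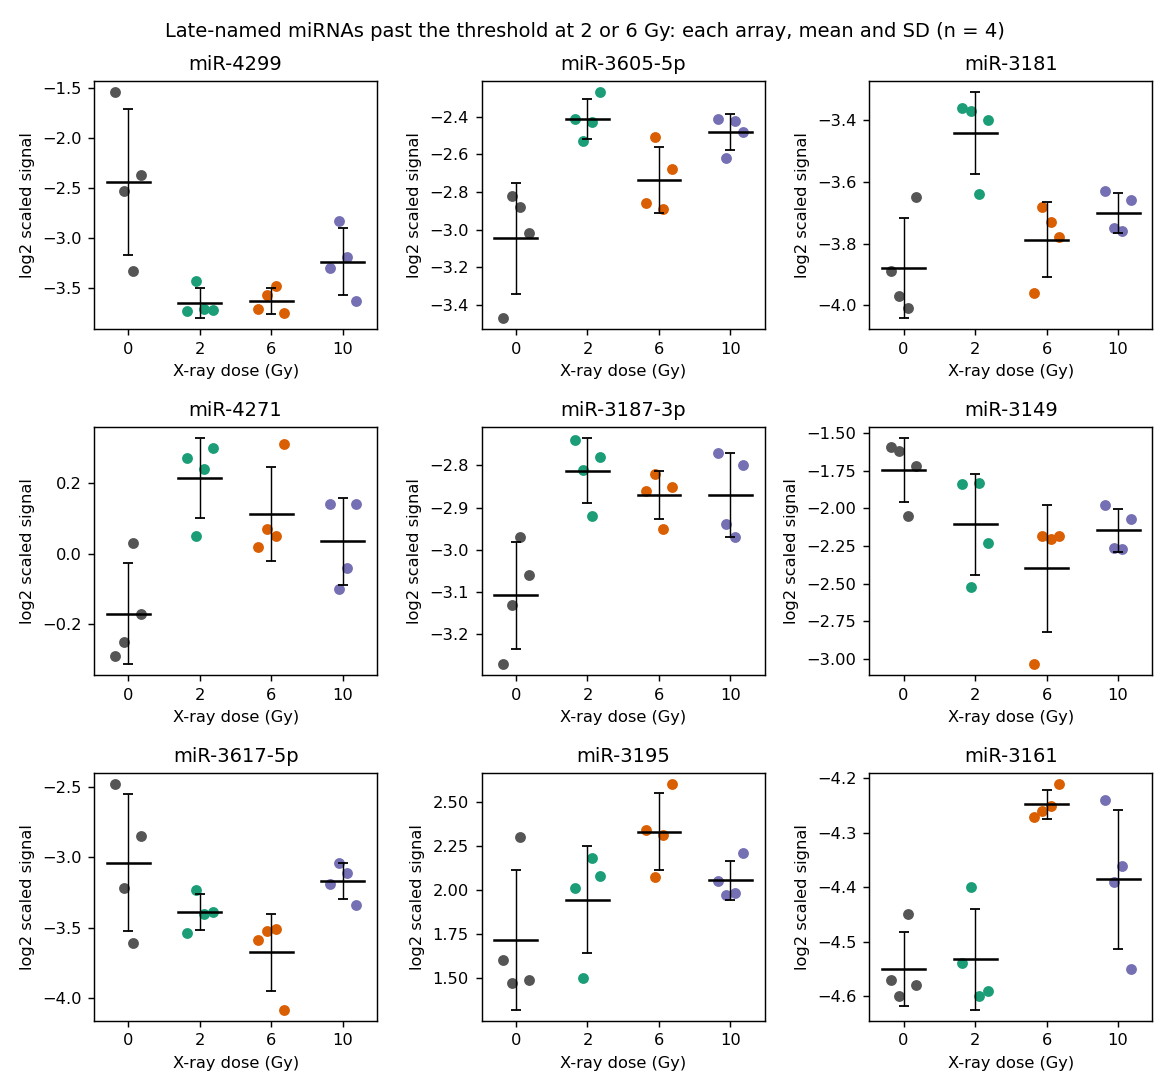
Level of 9 late-named miRNAs (log2 scaled signal, vertical axes with their own ranges) by X-ray dose in Gy, with 1 point per array, a bar at the mean and whiskers of 1 SD (n = 4). miR-4299 sits between -3.33 and -1.54 at 0 Gy and between -3.76 and -3.43 at 2 and 6 Gy, while miR-3161 lies between -4.27 and -4.21 on the 6 Gy arrays.

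The next members at 2 Gy were close to the threshold. miR-3141 differed by 0.34 (adjusted p = 0.052), miR-4314 by 0.30 (0.052) and miR-3200-5p by -0.60 (0.0602). miR-3200-5p met the detection rule at 0 and 6 Gy and not at 2 Gy, so the choice of members favoured its fall. The 2 Gy count of members depended on single cultures, and the share of all tested miRNAs is not given for these fits. Leaving out 0 Gy replicate 3 made it 29, leaving out 2 Gy replicate 2 made it 18, and leaving out 6 Gy replicate 4 made it 9. It was 3 when 0 Gy replicate 4 was left out, 2 for 2 Gy replicate 3, 1 for 0 Gy replicate 1, and 0 for either replicate 1 or replicate 4 of 2 Gy. With the 0 and 2 Gy arrays of their shared slide alone it was 0, with 10 members at an unadjusted p under 0.05.

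At 6 Gy, 5 of the 73 passed against 0 Gy (6.85%), where 19.4% of all tested miRNAs did. miR-3195 and miR-3161 rose, and miR-4299, miR-3149 and miR-3617-5p fell. miR-3161 is no support for a rise, since it met the detection rule through its 6 Gy arrays alone. It remains in the counts of members given here. Of all tested miRNAs, 6.01% passed as higher and 13.4% as lower. The median difference over the 73 was 0.16, with 56 above 0 and a range of -1.19 to 0.62, beside 0.12 over all 283. An unadjusted p under 0.05 was found for 22 members, 13 higher and 9 lower, and for 41.7% of all tested. The 9 lower include miR-3650, which met the detection rule at 0 and 2 Gy and not at 6 Gy, so the choice of members favoured its fall. The groups did not overlap for 5 members (6.85%), 3 higher and 2 lower. Of all tested, 9.19% did not overlap, 5.65% higher and 3.53% lower.

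miR-4299 fell by 1.19 ± 0.28 at 6 Gy (limma adjusted p = 0.0304, 95% interval -1.79 to -0.60). Fitted with the spike-in as a covariate, its difference was -0.74 (adjusted p = 0.112). With the scanner software's own spike-in metric as the covariate, which was tried first, it was -0.89 and passed (adjusted p = 0.0432). The adjusted p was 0.0626, 0.0579 and 0.0772 without 0 Gy replicate 1, 2 or 4, and 0.0581 and 0.0754 without 6 Gy replicate 1 or 4. Among the 5 members called at 6 Gy, miR-4299 alone also passed at 2 Gy, and both comparisons used the same 0 Gy arrays.

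miR-3149 read -1.59, -1.62, -2.05 and -1.72 at 0 Gy, -1.84, -2.52, -1.83 and -2.23 at 2 Gy, -3.03, -2.18, -2.20 and -2.18 at 6 Gy, and -1.98, -2.26, -2.27 and -2.07 at 10 Gy. All 6 Gy arrays were below all 0 Gy arrays, and replicate 1 lay well under the other 6 Gy cultures. miR-3149 fell by 0.65 ± 0.20 at 6 Gy (limma adjusted p = 0.0407), and without 6 Gy replicate 1 the difference was -0.44 (adjusted p = 0.0832). It was -0.27 (adjusted p = 0.254) with scaling over all probes, -0.29 (0.236) with quantile normalization, and -0.62 (0.178) with the spike-in as a covariate. miR-3148 had a like difference, -0.65, that did not pass (adjusted p = 0.0559).

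miR-3617-5p read -2.48, -3.22, -3.61 and -2.85 at 0 Gy, -3.54, -3.23, -3.40 and -3.39 at 2 Gy, -3.59, -3.52, -3.51 and -4.08 at 6 Gy, and -3.19, -3.04, -3.11 and -3.34 at 10 Gy. The 0 Gy value of replicate 3 lay among the 6 Gy values, so the groups overlapped. It fell by 0.63 ± 0.20 at 6 Gy (limma adjusted p = 0.0407). Its lowest levels of all, -4.08 and -3.61, were on the arrays with the lowest spike-in, 6 Gy replicate 4 (0) and 0 Gy replicate 3 (0.92). Fitted with the spike-in as a covariate, the difference was -0.28 (adjusted p = 0.191), and with the scanner software's metric it was -0.39 (0.0505). It was -0.25 (adjusted p = 0.229) with scaling over all probes, -0.41 (0.0596) with quantile normalization and -0.33 (0.17) with normexp.

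miR-3195 ran the other way. It read 1.60, 1.47, 2.30 and 1.49 at 0 Gy, 2.01, 1.5, 2.18 and 2.08 at 2 Gy, 2.34, 2.07, 2.31 and 2.60 at 6 Gy, and 2.05, 1.97, 1.98 and 2.21 at 10 Gy. It rose by 0.62 ± 0.19 at 6 Gy (limma adjusted p = 0.0407), with overlap through 0 Gy replicate 3. That replicate and 6 Gy replicate 4, with the lowest spike-in, held the highest values of their doses. Fitted with the spike-in, the difference was 0.32 (adjusted p = 0.201), and with the scanner software's metric it was 0.40 (0.0595). It was 1.0 (adjusted p = 0.00977) with scaling over all probes.

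miR-3161 was close to the floor on all 16 arrays. It read -4.57, -4.60, -4.45 and -4.58 at 0 Gy, -4.54, -4.40, -4.60 and -4.59 at 2 Gy, -4.27, -4.26, -4.25 and -4.21 at 6 Gy, and -4.24, -4.39, -4.36 and -4.55 at 10 Gy. It rose by 0.30 ± 0.08 at 6 Gy (limma adjusted p = 0.0341). It was kept through its 6 Gy detection, so the choice of members favoured this rise, and its difference was -0.03 (adjusted p = 0.871) with normexp.

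The 6 Gy count of members also depended on single cultures, again without the share of all tested miRNAs. It was 35 without 0 Gy replicate 3 and 9 without 2 Gy replicate 2 or 6 Gy replicate 2. Leaving out replicate 3 or 4 of the 2 Gy arrays, or replicate 1 or 2 of those at 10 Gy, made it 2. Leaving out replicate 1 at 2 Gy, or replicate 3 at either 6 or 10 Gy, made it 1. No member passed with any of replicates 1, 2 and 4 of the controls, or replicates 1 and 4 of the 6 Gy cultures, left out (14 or more had an unadjusted p under 0.05). miR-3149, miR-3617-5p and miR-3195 passed when the array left out was replicate 3 of 0 Gy, replicate 2 of 2 Gy, replicate 2 of 6 Gy or replicate 4 of 10 Gy, and for the other 12 arrays their adjusted p was 0.0502 to 0.125. miR-3161 did not pass (0.0502 to 0.0895) when the array left out was any control but replicate 3, any 6 Gy array but replicate 2, replicate 1 of 2 Gy, or replicate 3 of 10 Gy. A fit with the spike-in as a covariate called 0 members (limma), and 8 had an unadjusted p under 0.05, while a fit with the scanner software's metric called 2.

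**Figure D3:**
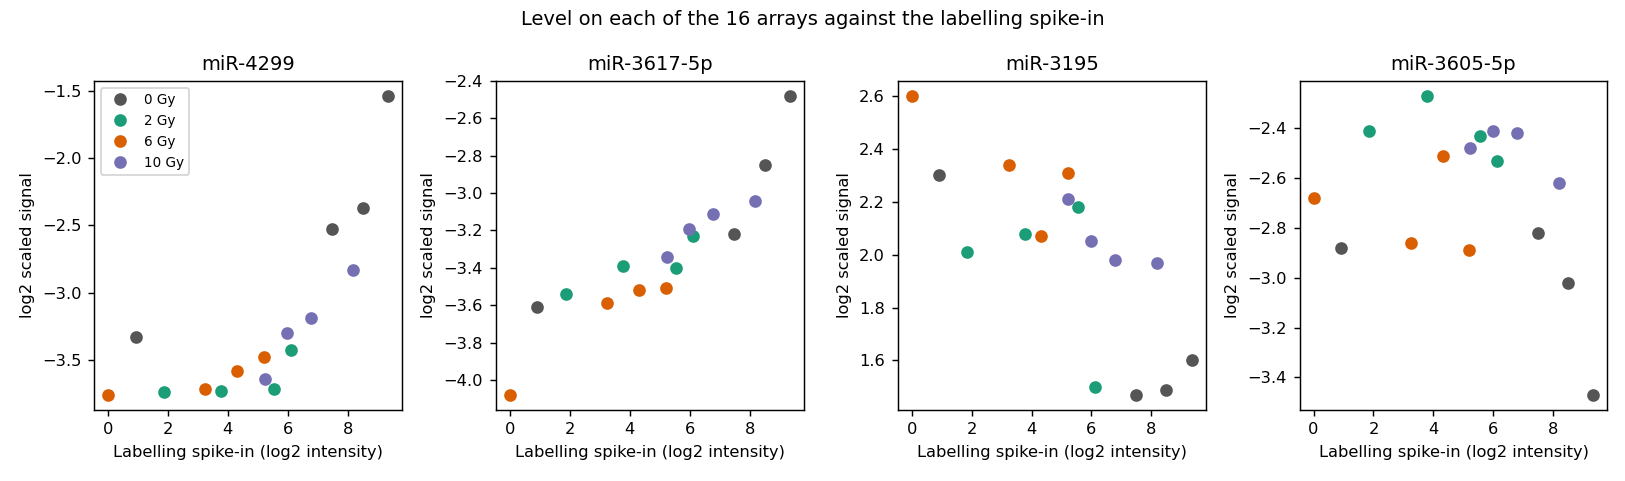
Level of miR-4299, miR-3617-5p, miR-3195 and miR-3605-5p (log2 scaled signal, vertical axes) against the labelling spike-in (mean log2 intensity, horizontal axes) on each of the 16 arrays, coloured by dose. miR-4299 and miR-3617-5p are highest on the array with the highest spike-in, 9.34, and miR-3195 is highest on the array at 0.

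At 10 Gy, 0 of the 73 passed against 0 Gy with limma, where 0.353% of all tested miRNAs did, and 10 had an unadjusted p under 0.05 (9 higher, 1 lower), as did 22.3% of all tested. The smallest adjusted p was 0.0552, for miR-3605-5p. The median difference was 0.08, with 48 of 73 above 0 and a range of -0.80 to 0.56, beside -0.02 over all 283, and without scaling the medians were -0.16 and -0.23. The groups did not overlap for 7 members (9.59%), all higher. Of all tested, 15.2% did not overlap, 9.89% higher and 5.3% lower.

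After miR-3605-5p, the smallest p-values at 10 Gy were those of miR-4314, miR-3125 and miR-3187-3p. miR-4314 read -4.31, -3.88, -4.02 and -4.0 at 0 Gy, -3.71, -3.80, -3.77 and -3.73 at 2 Gy, -3.89, -3.83, -3.98 and -3.77 at 6 Gy, and -3.59, -3.85, -3.67 and -3.80 at 10 Gy. Its 10 Gy arrays all lay above its 0 Gy arrays, with a difference of 0.32 ± 0.10 (limma adjusted p = 0.0741). miR-3125 read -2.70, -2.13, -2.32 and -2.37 at 0 Gy, -2.13, -2.23, -2.18 and -1.97 at 2 Gy, -2.30, -1.85, -2.22 and -2.32 at 6 Gy, and -2.04, -1.93, -1.92 and -2.03 at 10 Gy, with a difference of 0.40 ± 0.13 at 10 Gy (adjusted p = 0.087). With the spike-in as a covariate, 7 members passed at 10 Gy (6 higher, 1 lower), these 4 among them. The count was 8 when 0 Gy replicate 3 was left out, 2 for 0 Gy replicate 2 and 1 for 6 Gy replicate 4. The share of all tested miRNAs was not set beside these counts.

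Between 10 and 6 Gy, on 1 slide, 0 of the 73 passed with limma and 0% of all tested miRNAs did, the smallest adjusted p being 0.321. An unadjusted p under 0.05 was found for 13 members (5 higher at 10 Gy, 8 lower) and for 14.8% of all tested. The 8 lower include miR-3180-5p and miR-4323, which met the detection rule at 0, 2 and 6 Gy and not at 10 Gy. The choice of members favoured their fall. The median difference was -0.05, with 30 above 0 and a range of -0.61 to 0.66, beside 0 over all 283, and with normexp the medians were 0.09 and 0.14. The groups did not overlap for 8 members (11%), 7 higher and 1 lower. Of all tested, 10.6% did not overlap, 8.13% higher and 2.47% lower.

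The smallest p-values in that comparison belonged to miR-3621, miR-3180-5p, miR-3617-5p and miR-3156-5p. miR-3621 read -3.71, -3.61, -3.79 and -3.72 at 6 Gy and -3.47, -3.44, -3.42 and -3.54 at 10 Gy, a difference of 0.24 ± 0.07. miR-3156-5p read -0.89, -0.54, -1.16 and -1.62 at 6 Gy and -0.45, -0.29, -0.38 and -0.45 at 10 Gy, a difference of 0.66 ± 0.26, with 10 Gy values close together. The difference of miR-3617-5p was 0.50 ± 0.20 and that of miR-3180-5p -0.41 ± 0.15. None of the 4 passed (limma adjusted p = 0.321 each). miR-3180-5p met the detection rule at 0, 2 and 6 Gy and not at 10 Gy, so the choice of members favoured its fall.

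The test of any difference among the 4 doses called 0 of the 73 and 0% of all tested miRNAs with limma, and 14 of the 73 and 32.2% of all tested had an unadjusted p under 0.05. miR-3605-5p and miR-4299 came closest (adjusted p = 0.0547 each), then miR-3181 (0.0591) and miR-3161 (0.0715).

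**Figure D4:**
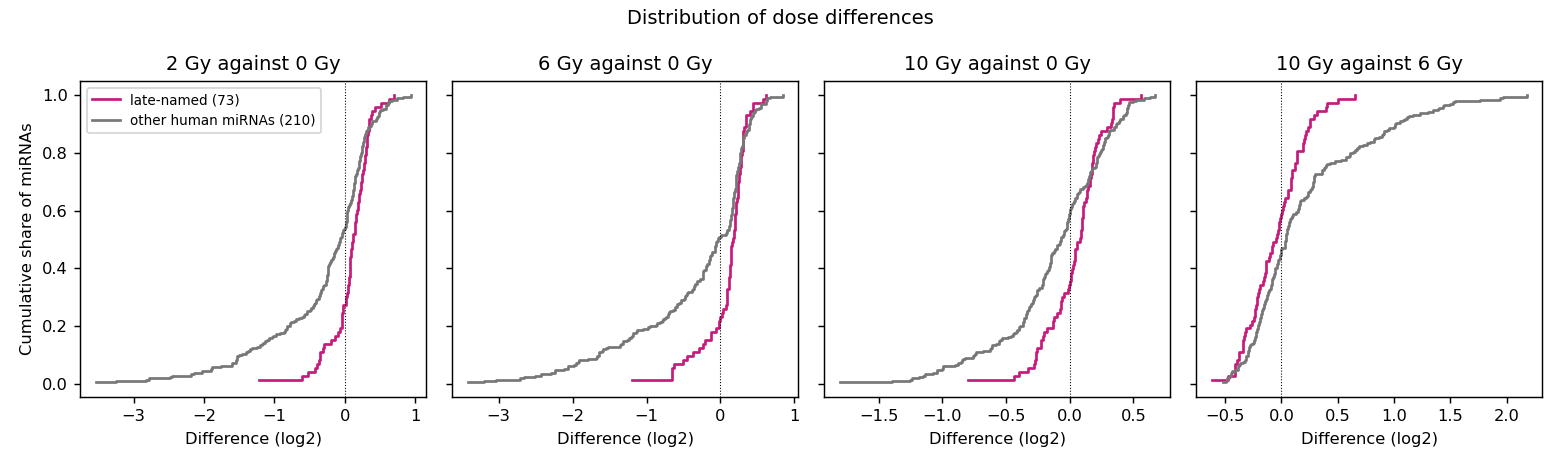
Cumulative share of miRNAs (vertical axes) by difference of dose means (log2 scaled signal, horizontal axes) for the 73 late-named and the 210 other human miRNAs in 4 comparisons. The late-named curve has no tail below -1.21 at 2 Gy, whereas the other miRNAs reach -3.53, and above 0.66 at 10 against 6 Gy, whereas the others reach 2.18. miR-4286, of the same number range but left out of the members, is among the others with -1.52 and 0.94.

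The late-named miRNAs kept as members covered a narrower range of change than the other miRNAs. At 2 Gy the interquartile range of their differences was -0.03 to 0.27, beside -0.52 to 0.20 for the other 210, and at 6 Gy 0.04 to 0.27 beside -0.67 to 0.24. At 10 against 6 Gy it was -0.23 to 0.12 beside -0.17 to 0.39. These are descriptions of the lists, and no test of the difference between them was made. The other miRNAs include the names left out of the number range, so the members' extremes depend on that choice. At 6 Gy miR-4286 (-1.93) and miR-4284 (-1.24) lay below the lowest member, -1.19. At 10 against 6 Gy miR-4286 (0.94) lay above the highest member, 0.66. miR-3610 and miR-4281 lay within the members' range in both comparisons. The interquartile ranges were not recalculated with these names as members. The members' median level minus that of the other miRNAs ranged from -0.48 to 0.47 over the 0 Gy arrays, 0.02 to 0.65 at 2 Gy, 0.14 to 0.73 at 6 Gy and 0.02 to 0.33 at 10 Gy. It was 0.47 and 0.73 on the arrays with the lowest labelling spike-in (0.92 and 0), and -0.15 and 0.02 on arrays with a high one (9.34 and 8.19). The part of the labelling step in it was not tested.

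The medians were lower in the middle blocks of the number range at 2 and 10 Gy, with no test of the blocks against each other. From miR-3000 to miR-3299 the median differences at 2, 6 and 10 Gy were 0.17, 0.19 and 0.11, and from miR-4000 to miR-4999 they were 0.17, 0.18 and 0.09. From miR-3600 to miR-3699 they were 0.07, 0.12 and 0.01, and from miR-3700 to miR-3999 0.07, 0.20 and 0.03.

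A pair of hairpins had both arms among the members. miR-3180-3p differed from 0 Gy by 0.38, 0.30 and 0.10 at 2, 6 and 10 Gy, and its partner miR-3180-5p by -0.04, 0.15 and -0.26. miR-3679-3p differed by 0.32, 0.28 and 0.02, and miR-3679-5p by 0.27, 0.25 and 0.23. Over the 16 arrays the arms correlated at 0.62 for miR-3180 and 0.63 for miR-3679, given as a description of arrays that share their labelling and scaling. None of these differences passed the test.

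Of 7 names known to overlap other non-coding RNA, 6 were on the array under the name looked for and 2 were tested. miR-3656 averaged 2.17 ± 0.25, 2.51 ± 0.18, 2.30 ± 0.15 and 2.51 ± 0.16 in order of dose (SD over 4 arrays), and miR-3648 differed from 0 Gy by 0.03, 0.00 and 0.06. Neither passed at any dose. miR-3651 was detected on 3 arrays, all at 0 Gy, and miR-3607-5p, miR-3607-3p and miR-3687 on 0. miR-3653 was not on the array under that name, but miR-3653-3p was, and it was detected on 0 arrays.

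The miRNAs most like miR-3605-5p over the 16 arrays, by Pearson's r, were miR-4314 (0.93), miR-188-5p (0.87) and miR-516a-5p (0.86). Those most like miR-4299 were miR-1274a_v16.0 (0.96), a name from an older release, miR-30e-5p (0.95) and miR-196b-5p (0.95). The arrays share doses, labelling and scaling, and the correlations describe them only.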

How the data were processed

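Per the file headers, each file is the Feature Extraction 11.5.1.1 output of 1 single-colour Agilent array. The deposited processed signal is a background-subtracted intensity, and its headers record no scaling across arrays. Control and outlier-flagged spots (3.27 to 4.90% of spots) were left out and a probe's spots averaged. After scaling, floor and log2, a miRNA was the mean over its detected probes (592 human probes). limma 3.58.1 (lmFit and eBayes, R 4.3.3 with the package data.table, release 1.17.8) fitted a mean per dose over 16 arrays. Figures used Python 3.11.15 and matplotlib 3.10.9. The fit was tested on simulated data.

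Members, lists and tests were chosen with earlier results of these data known. Named are members past the threshold (up to 10 by size of change), otherwise the 4 smallest p-values, arms of 1 hairpin, members not detected throughout, 3 names just outside the rule and the 3 most alike to the 2 with the smallest F p. After values were seen, further names were added: miR-3131, miR-3917, miR-3648, miR-4306, miR-3148, miR-3141 and miR-3200-5p. Replicate numbers were not used to pair samples. Alternatives were other scalings, floors, filters, background, total intensity, covariates, a block and arrays left out. Human mature sequences were not used here.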

Additional observations from a re-analysis of the deposited data

Results flagged for a closer look

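Among 56 groups of 4 arrays (14 named miRNAs at 4 doses), 6 held an array far from the other 3 by Dixon's criterion, and chance gives about 5% of groups. At 2 Gy, miR-4299 was -3.43 in replicate 2 against -3.74 to -3.72 in the others, miR-3156-5p was -0.30 in replicate 2 against -1.20 to -1.05, and miR-3181 was -3.64 in replicate 3 against -3.40 to -3.36. At 6 Gy, miR-3149 was -3.03 in replicate 1 against -2.20 to -2.18, and miR-3617-5p was -4.08 in replicate 4 against -3.59 to -3.51. At 0 Gy, miR-3195 was 2.30 in replicate 3 against 1.47 to 1.60. The labelling spike-in was 6.11 at 2 Gy replicate 2, 0 at 6 Gy replicate 4 and 0.92 at 0 Gy replicate 3. Its part in these values was not tested array by array.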

How the results depend on the processing

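The rule kept 65 to 82 members under its alternatives. Under 5 other scalings or signals the members' median difference less that of all miRNAs was 0.06 to 0.09, 0.04 to 0.13 and 0.02 to 0.10 at 2, 6 and 10 Gy. Scaling over all probes and no scaling shift all miRNAs of an array alike. There only the floor could move this value, so those settings do not try it. It was 0.09, 0.13 and 0.07 with quantile normalization, 0.06, 0.08 and 0.02 with normexp, and 0.09, 0.08 and 0.10 with total gene intensity. Counts of members past the threshold are given for 2, 6 and 10 Gy against 0 Gy and for any difference among doses. The share of all tested miRNAs past it in each setting is not given. A large count therefore cannot be read as particular to the members. The cause of a moved count was not tested unless stated. Reported were 5, 5, 0 and 0. Scaling over all probes, which moved the median of all miRNAs to 0.40, 0.47 and 0.18 at the 3 doses, gave 41, 56, 3 and 30 (40 of the 41 and 55 of the 56 higher). Quantile normalization gave 20, 31, 9 and 12 (19 of the 20 and 30 of the 31 higher). Under it the median of all miRNAs was 0.21, 0.22 and 0.09 at the 3 doses. No scaling gave 0 throughout (limma, 2, 3, 3 and 4 at an unadjusted p under 0.05). Normexp gave 1, 2, 0 and 0, and total gene intensity 9, 7, 2 and 2. The lower floor gave 5, 5, 1 and 0, and requiring detection on all 16 arrays 6, 4, 1 and 2. Testing all 1205 human miRNAs gave 0 throughout for the 73 members, with 18, 25, 14 and 16 at an unadjusted p under 0.05. There 834 miRNAs (69.2%) lay at the floor on all 16 arrays, and limma warned that its variance estimate was unreliable, so the counts of that setting are not reliable.

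The labelling spike-in covariate gave 6, 0, 7 and 3. The covariate was first the scanner software's own metric, which gave 11, 2, 9 and 8. After those counts were seen it was replaced by the mean log2 probe signal, because 2 arrays shared the metric's lowest value, -2.32. The replacement has a lower limit too, 0, on which 6 Gy replicate 4 lies. Both versions are given because of the change. The arrays of 1 slide alone gave 0 at 2 Gy. The replicate block gave 12, 7, 0 and 2. Same-numbered arrays correlated between -0.76 and 0.87 (mean 0.15, other arrays -0.08), with 14 of 24 pairs over 0.1 and 17 of 48 best with their own number, where chance gives 1 in 4. The 6 pairs of replicate 2 lay between 0.59 and 0.87. Since not every pair was over 0.1, the numbers were not taken as pairs, which does not show that same-numbered cultures were unrelated. Chosen after seeing the data, leaving out both 0 Gy replicate 3 and 2 Gy replicate 2 gave 38, 41, 14 and 43. The counts here, too, lack the share of all tested miRNAs and cannot be read as particular to the members. Leaving out 1 array gave 0 to 29, 0 to 35, 0 to 8 and 0 to 28, and for any difference it was 28 when 0 Gy replicate 3 was left out, 3 for 2 Gy replicate 2 and 1 for 6 Gy replicate 4. At 10 against 6 Gy the count was 0 in all these settings.

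Sign changes were found for miR-3161 at 6 Gy (-0.03 with normexp) and, at 10 against 6 Gy, for miR-3621 (-0.25 without scaling) and miR-3180-5p (0.08 with normexp). At 2 Gy miR-4299 passed in 21 of 29 alternatives (adjusted p 0.000409 to 0.112), miR-3605-5p in 23, miR-3181 in 22, miR-4271 in 20 and miR-3187-3p in 19 of 29. At 6 Gy miR-4299 passed in 20 of 28, miR-3161 in 15 of 27, miR-3195 in 12 of 28, miR-3617-5p in 8 of 28 and miR-3149 in 7 of 28. These tallies include fits without an array of a dose outside the comparison. Such a fit leaves the difference unchanged and alters only its estimated spread, so the tallies do not measure how robust a call was. Array number and signal near background limit the precision.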
